A study of Mus musculus with 84 samples.

Results

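Fos, Fosb, Jun, Junb, Jund, Egr1, Ier2, Ier3, Atf3 and Dusp1 are immediate early genes that are also commonly induced when tissue is dissociated into single cells. They were taken by symbol, and all 10 were present among the 20308 genes of the expression table. The table holds 84 single cells of the aorta-gonad-mesonephros (AGM) region of mouse embryos at E11.5 (E, embryonic day), the trunk region with the dorsal aorta. Cells had been sorted as positive for CD31 and CD144, which mark endothelium, and negative for CD41 and CD45, which mark blood cells. They were captured on a Fluidigm C1 chip and their cDNA was made with a SMARTer kit. All cells carry the same sort label and no genotype, treatment or embryo is given, so the cells are treated as a single sample and carry no test.

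Immediate early genes are transcribed within minutes of a signal, without new protein synthesis, mainly through MAP kinases acting on serum response factor and its partners and through cyclic AMP response element binding protein (CREB). Fos and Jun proteins pair to form AP-1, a transcription factor. Egr1 is a zinc finger transcription factor, Atf3 a stress-induced relative of the CREB family, and Dusp1 a phosphatase that switches MAP kinases off. Because dissociation can induce these genes, their level in single cells may not be that in the embryo, and no undissociated tissue was analysed here.

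The values are TPM, a unit of transcript abundance scaled for transcript length and to the same total in every cell. A gene was counted as detected at TPM 1 or more. Cells had between 3334 and 10073 detected genes, with a median of 6978. TPM keeps no sequencing depth, so the reads behind a cell are unknown, and a value of 0 can be a missed transcript. Pecam1, which encodes CD31, was detected in 80 cells and Cdh5, which encodes CD144, in 82. Ptprc, which encodes CD45, was detected in 0 of 84 cells, which allows a share of up to 4.30% of cells with a detected transcript and does not limit the share that expresses it, while Itga2b, which encodes CD41, was detected in 7. Mesenchymal transcripts were present in part of the sort: 32 cells held 3 or more of 11 mesenchyme markers at TPM 10, and 9 cells formed a mesenchyme-like cluster described below. The libraries shared 0 index pairs, and they fell into 7 sets of 12 cells by the second index sequence, which are called index sets here.

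The sequence upstream of a transcription start shows which signal-response letters a gene carries. The letters TGACG are the core of the cyclic AMP response element bound by CREB and Atf3 proteins. Of the 10 genes, 8 had an entry in the RefSeq promoter table, and the 250 bases before the start held TGACG in 5 of them: Fos, Fosb, Junb, Atf3 and Dusp1. Over 32851 promoters of that table, 17.8% held it. Of these 5, Fos, Junb, Atf3 and Dusp1 are shown, and Fosb is not. The sequences are from RefSeq on GRCm38.p6, 5′ to 3′ on the gene's strand, with the matches in capitals. A match on the opposite strand, as in Atf3, reads CGTCA.
Fos chr12:85473640-85473889 (+): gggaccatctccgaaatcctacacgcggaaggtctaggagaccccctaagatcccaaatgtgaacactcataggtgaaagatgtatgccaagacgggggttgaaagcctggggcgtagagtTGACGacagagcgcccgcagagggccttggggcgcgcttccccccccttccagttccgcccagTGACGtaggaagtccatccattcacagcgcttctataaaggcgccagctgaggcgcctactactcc
Junb chr8:84978749-84978998 (-): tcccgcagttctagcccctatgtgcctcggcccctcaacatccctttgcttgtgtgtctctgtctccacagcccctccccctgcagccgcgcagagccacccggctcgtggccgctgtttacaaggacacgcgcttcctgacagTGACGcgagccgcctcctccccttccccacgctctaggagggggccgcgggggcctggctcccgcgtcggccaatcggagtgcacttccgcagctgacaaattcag
Atf3 chr1:191183334-191183583 (-): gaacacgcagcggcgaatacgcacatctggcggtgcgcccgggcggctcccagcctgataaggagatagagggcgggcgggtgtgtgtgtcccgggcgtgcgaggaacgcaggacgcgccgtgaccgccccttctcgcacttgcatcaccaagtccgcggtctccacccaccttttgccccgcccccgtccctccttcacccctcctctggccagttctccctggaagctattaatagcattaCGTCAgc
Dusp1 chr17:26508473-26508722 (-): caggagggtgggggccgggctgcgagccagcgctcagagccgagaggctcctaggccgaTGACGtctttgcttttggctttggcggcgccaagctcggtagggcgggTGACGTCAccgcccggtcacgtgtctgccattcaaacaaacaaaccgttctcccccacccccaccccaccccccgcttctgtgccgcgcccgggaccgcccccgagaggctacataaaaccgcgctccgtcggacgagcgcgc
Counted from the start, with −1 as the base before it, Fos carried the letters at 2 places, −129 and −66. Junb and Atf3 carried 1 copy each, and that of Atf3 began at −7. In Dusp1 there were 3 matches, a pair of which overlap to give the full palindrome TGACGTCA, beginning at −143. The full palindrome was in 1.55% of promoters. The AP-1 letters TGANTCA were in 0 of the 8 windows, against 6.75% of all promoters, and the CArG box, to which serum response factor binds, was likewise in 0 of 8, against 1.47%. TATAA was in the windows of Fos and Ier3, against 22.8% of all promoters. Both strands were searched. A match is only a run of letters, and its absence describes this window alone.

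Detection ran over a wide range, with Jun in 81 cells at the top and Ier3 in 15 at the bottom. The order was Jun (96.4% of cells), Dusp1 (84.5%), Ier2 (83.3%), Fos (78.6%), Egr1 (72.6%), Jund (61.9%), Fosb (41.7%), Atf3 (36.9%), Junb (34.5%) and Ier3 (17.9%). Exact 95% Clopper-Pearson intervals, which cover counting error over cells only, overlapped between every neighbouring pair in that order. A cell had a median of 6 of the 10 genes detected, with quartiles of 5 and 8 and a range of 2 to 10. At TPM 10 the median was 4, and 32 cells had 5 or more genes at that level while 2 cells had 0. The summed TPM of the genes had a median of 341 and spanned 8.20 in cell 40 to 3785 in cell 54, a cell of the mesenchyme-like cluster.

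**Figure D1:**
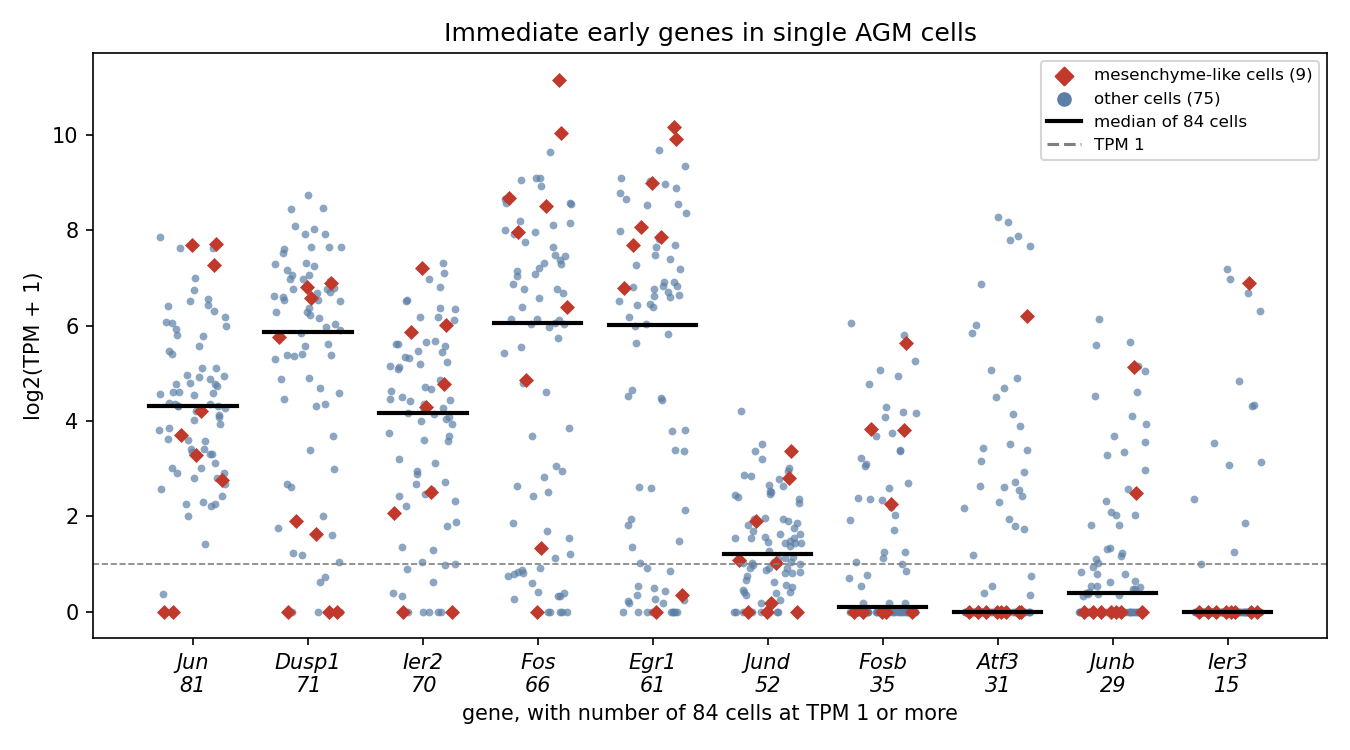
Level of each gene as log2(TPM + 1) in each of 84 cells, with genes ordered by the number of cells at TPM 1 or more, which stands under each name. Red diamonds are the 9 mesenchyme-like cells, blue points the other 75, black bars the medians and the dashed line TPM 1. Fos, Egr1 and Dusp1 have medians of 65.4, 63.6 and 57.6 TPM, while the median of Atf3 and of Ier3 is 0.

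Fos (chr12:85473890-85477274, GRCm38.p6, plus strand) encodes the founding AP-1 partner of Jun. Its TPM was 0 at the lowest, 65.4 at the median and 2285 at the highest, with quartiles of 1.53 and 203. It was at TPM 1 in 66 cells (interval 68.3 to 86.8%), at TPM 10 in 53 and at TPM 100 in 35. Fosb (chr7:19302696-19310118), a close relative of Fos, was much lower, with a median of 0.065 TPM, an upper quartile of 5.16 and a highest value of 65.9. It reached TPM 10 in 15 cells and TPM 100 in 0. Fosb was almost always found with Fos: 34 of its 35 cells also had Fos, against 27.5 from independent detection. In 32 cells Fos was detected without Fosb. Where both were detected Fos was the higher in 32 of 34 cells, by a median ratio of 20.2.

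Jun (chr4:95049036-95052222), the main DNA-binding partner in AP-1, was the most evenly detected. Its TPM was 0 at the lowest, 18.9 at the median and 230 at the highest, with quartiles of 8.80 and 43.8, and it passed TPM 100 in only 8 cells. Junb (chr8:84976909-84978748), often described as a weaker activator than Jun, was detected in 29 cells, with a median of 0.305 TPM and a highest value of 69.6. Jund (chr8:70697739-70700616), the family member usually expressed without a stimulus, was above 0 in 73 cells but low, with a median of 1.32 TPM, a highest value of 17.4 and only 2 cells at TPM 10. Jun was the highest of the Jun family in 72 of the 83 cells with any of them detected, Junb in 8 and Jund in 3, and Jun made up a median of 88.2% of the family's TPM. Fos was above Jun in 54 cells.

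Jund and Junb, both low in level, also had the highest GC content of the 10 genes. Their GENCODE transcripts have a GC content of 67.1% for Jund and 62.6% for Junb, against 55.5% for Jun and 51.9% for Fos. Jund and Junb were at the 99.8th and 98.9th percentiles of the 11747 genes with a transcript that were detected in 5 or more cells. Level did not follow GC content among the other genes of the 10. Ier2 had 60.9%, at the 97.5th percentile, and was detected in 70 cells with a median of 16.9 TPM. Egr1 had 57.3% and a median of 63.6 TPM, and Dusp1 54.9% and 57.6 TPM. Ier3 (54.4%) and Atf3 (52.2%) had medians of 0. Fosb, between Jun and Egr1 in GC content, had a median of 0.065 TPM. Among 11747 genes detected in 5 or more cells, those with the highest GC (57.9 to 71.3%) were detected in a median of 31 cells, and those with the lowest (32.6 to 41.7%) in a median of 58. The part of GC content in the levels was not tested. Junb also shares 173 exon bases with Prdx2 on the opposite strand, and Prdx2 had a median of 1134 TPM in 84 cells. The library kit does not mark strand, so reads of that stretch cannot be told apart. Over cells Junb and Prdx2 had a Spearman rank correlation (rho) of −0.07. Jun and Jund also have exons that overlap a gene on the opposite strand, Junos for Jun and Gm11175 for Jund, for which no values were analysed here.

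Egr1 (chr18:34861207-34864956) resembled Fos. Its TPM was 0 at the lowest, 63.6 at the median and 1148 at the highest, with quartiles of 0.72 and 182, and its highest value was in the same cell 54. It was detected in 61 cells (interval 61.8 to 81.8%), at TPM 10 in 51 and at TPM 100 in 33. Fos was the higher of the pair in 52 cells.

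Dusp1 (chr17:26505591-26508472) was detected in 71 cells, with quartiles of 4.63 and 119 TPM, a median of 57.6 and a highest value of 428 in cell 46. It reached TPM 100 in 28 cells. Ier2 (chr8:84661331-84662852), a small nuclear protein named for its immediate early response, was as widespread but lower, with a median of 16.9 TPM, quartiles of 3.56 and 40.1 and 5 cells at TPM 100. Dusp1 shares 11 exon bases with Ergic1 on the opposite strand, whose reads cannot be told apart either.

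Atf3 (chr1:191170296-191183333) had a median of 0, an upper quartile of 5.31 and a highest value of 310 TPM, also in cell 46. It was detected in 31 cells and passed TPM 100 in 6. Ier3 (chr17:35821713-35822911), known as a regulator of cell survival, was the least detected: 69 cells were at 0, and the highest value was 145 TPM in cell 23. In the 15 cells with Ier3 the median was 19 TPM, against 10.5 TPM for Atf3 in its own 31 cells. Both genes were therefore undetected in most cells.

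The genes varied together only in part. Over the 45 pairs the median rho across 84 cells was 0.16, with a range of −0.15 to 0.50, and 38 pairs were positive. The median was 0.10 in the 47 cells without 3 or more markers of another cell type. Over all pairs of 12318 genes detected in 5 or more cells the median was 0.02. A rho of 0.3 or more, a value chosen after the correlations were seen, was reached by 8 of the 45 pairs (17.8%), against 0.908% of all gene pairs and 1.14% of pairs of genes detected in 42 or more cells. All cells share the same sort label and 1 type of preparation, and they differ in detected gene number. Given detected gene number, the median partial rank correlation was 0.13.

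Fos, Fosb and Egr1 formed the tightest group. The rho was 0.50 for Fos and Egr1, 0.48 for Fosb and Egr1 and 0.47 for Fos and Fosb. All 3 pairs were positive in each of the 7 index sets, with within-set values of 0.29 to 0.73 for Fos and Egr1, 0.25 to 0.73 for Fosb and Egr1 and 0.10 to 0.75 for Fos and Fosb. Among 12317 other genes, Egr1 was the one with the highest rho to Fos and also to Fosb. Fos stood second to Egr1, after Zfhx4, with a rho of 0.50 for each when rounded.

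The link between Fos and Egr1 was in both detection and level. Both were detected at TPM 1 in 53 cells, against 47.9 from independent detection. At TPM 10, a limit that also reflects level, both were present in 41 cells, against 32.2 if independent. Neither reached TPM 10 in 21 cells, while 12 cells had Fos alone and 10 had Egr1 alone at that limit. Among cells with both at TPM 1 rho was 0.36. All of Fos, Fosb and Egr1 were detected in 31 cells and none of the 3 in 9 cells. Without cells that hold 3 or more markers of another cell type, which leaves 47, rho was lower, at 0.33 for Fos and Egr1, 0.35 for Fosb and Egr1 and 0.37 for Fos and Fosb.

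**Figure D2:**
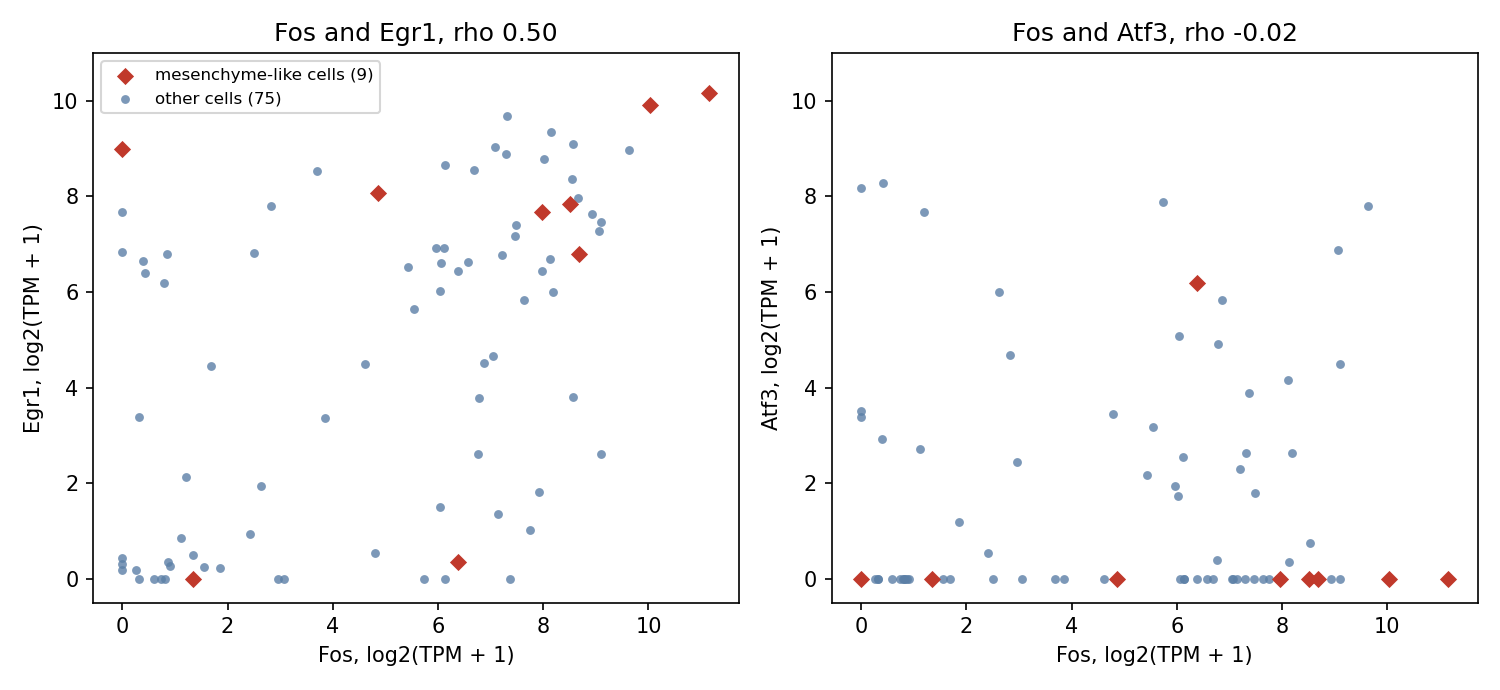
Fos level against Egr1 (left) and against Atf3 (right), each as log2(TPM + 1), with 1 point per cell; red diamonds are the 9 mesenchyme-like cells and blue points the other 75. Fos and Egr1 are high together in the upper right and low together in the lower left (rho 0.50), whereas cells with Atf3 lie at any level of Fos (rho −0.02).

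Jun and Ier2 were tied to that group more loosely. Jun had a rho of 0.38 with Egr1, 0.35 with Fosb, 0.31 with Ier2 and 0.30 with Jund, and Ier2 had 0.32 with Fosb. Fos and Jun, whose proteins pair, had a rho of 0.25. The pairs of Ier2 depended on which cells were used: without cells holding another type's markers, rho was 0.07 for Fosb and Ier2 and 0.13 for Jun and Ier2. Those 47 cells also held 8 pairs at 0.3 or more, of which 4 were shared with all 84 cells: Fos with Egr1, Fos with Fosb, Fosb with Egr1 and Jun with Egr1. The other 4 there were Fosb with Junb at 0.37, Fos with Dusp1 at 0.33, Fos with Jun at 0.33 and Fos with Junb at 0.32. The share of all gene pairs at 0.3 or more was not counted in those 47 cells. The count of 8 there therefore has no background beside it.

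Atf3 stood apart from Fos, Jun and Egr1. Its median rho with the other 9 genes was −0.04, its lowest was −0.15 with Egr1, and its highest was 0.23 with Dusp1. Junb had its highest rho with Fos, at 0.24, and Ier3 with Fosb, at 0.17. Dusp1, whose protein acts on the kinases upstream of Fos and Egr1, had a rho of 0.22 with Fos, 0.25 with Jun and 0.05 with Egr1.

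**Figure D3:**
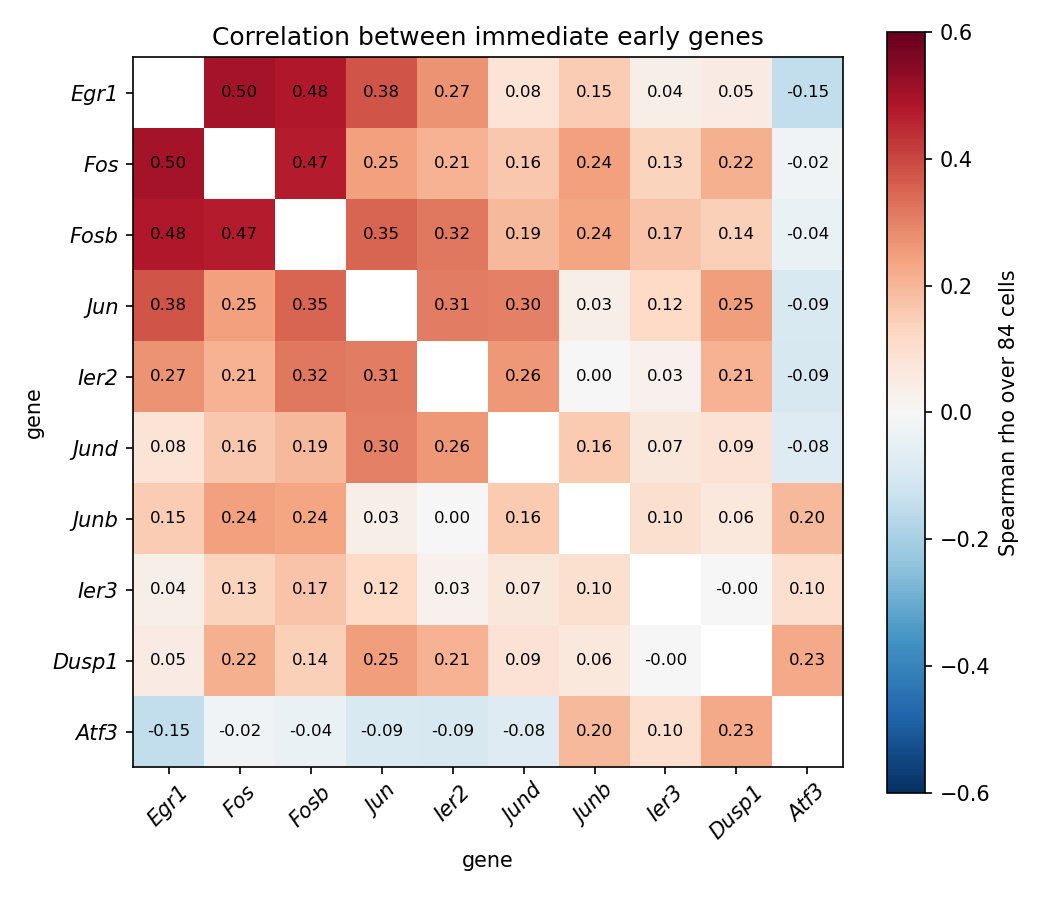
Spearman rho over 84 cells for each of the 45 pairs of genes, on a colour scale from blue (negative) through white to red (positive), with the value in each square. The dark corner is Fos, Fosb and Egr1, with values of 0.47 to 0.50, and the row of Atf3 is pale, with values between −0.15 and 0.23.

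Mki67, a marker of cycling cells, was detected in 69 cells (82.1%, interval 72.3 to 89.6%), with a median of 58.1 and a highest value of 357 TPM. It had a rho of 0.62 with the mean of the other G2M genes, that is, genes of the G2 and M phases. No gene of the 10 reached a rho of 0.3 with Mki67 in either direction, where 1.45% of all genes were at 0.3 or more and 0.43% at −0.3 or less. The highest were Fos at 0.24 and Egr1 at 0.22, above the 95th percentile of all genes (0.21). Fosb had 0.17, Ier2 0.13, Junb 0.12 and Jun 0.08. Jund, Dusp1, Ier3 and Atf3 lay between −0.04 and −0.10. The median was 0.10, against 0.00 for all genes.

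Within index sets rho of Fos with Mki67 ranged from −0.09 to 0.68, so its sign was not the same in every set. Mki67 was also higher in the mesenchyme-like cells, with a median of 105 TPM there against 50.5 TPM in the other cells. Without those cells rho of Fos with Mki67 was 0.24. With the mean of G2M genes, Fosb reached 0.31 and Ier2 0.28, and 3.09% of all genes were at 0.3 or more. With the mean of S phase genes, Ier3 had 0.41 and Fos 0.20, where 1.92% of all genes were at 0.3 or more, and the value of Ier3 rests on 15 cells.

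With detected gene number, a measure of how complete a library is, the genes taken singly were close to all genes. The median rho was 0.17, against 0.15 for all genes, and 0 of the 10 reached 0.3, where 9.69% of all genes did and 0.0325% were at −0.3 or less. Fos had 0.27, Fosb 0.25, Junb 0.22 and Dusp1 0.20, and Atf3 was the lowest at 0.02. Without the 9 mesenchyme-like cells, which had a median of 5704 detected genes against 7091 in the others, rho was 0.41 for Fos, 0.35 for Egr1 and 0.33 for Fosb, where the 95th percentile of all genes in the same 75 cells was 0.34. The mean log2(TPM + 1) over the 10 genes had a rho of 0.37 with detected gene number, above the 95th percentile of single genes (0.34), and 0.47 without the 9 cells.

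**Figure D4:**
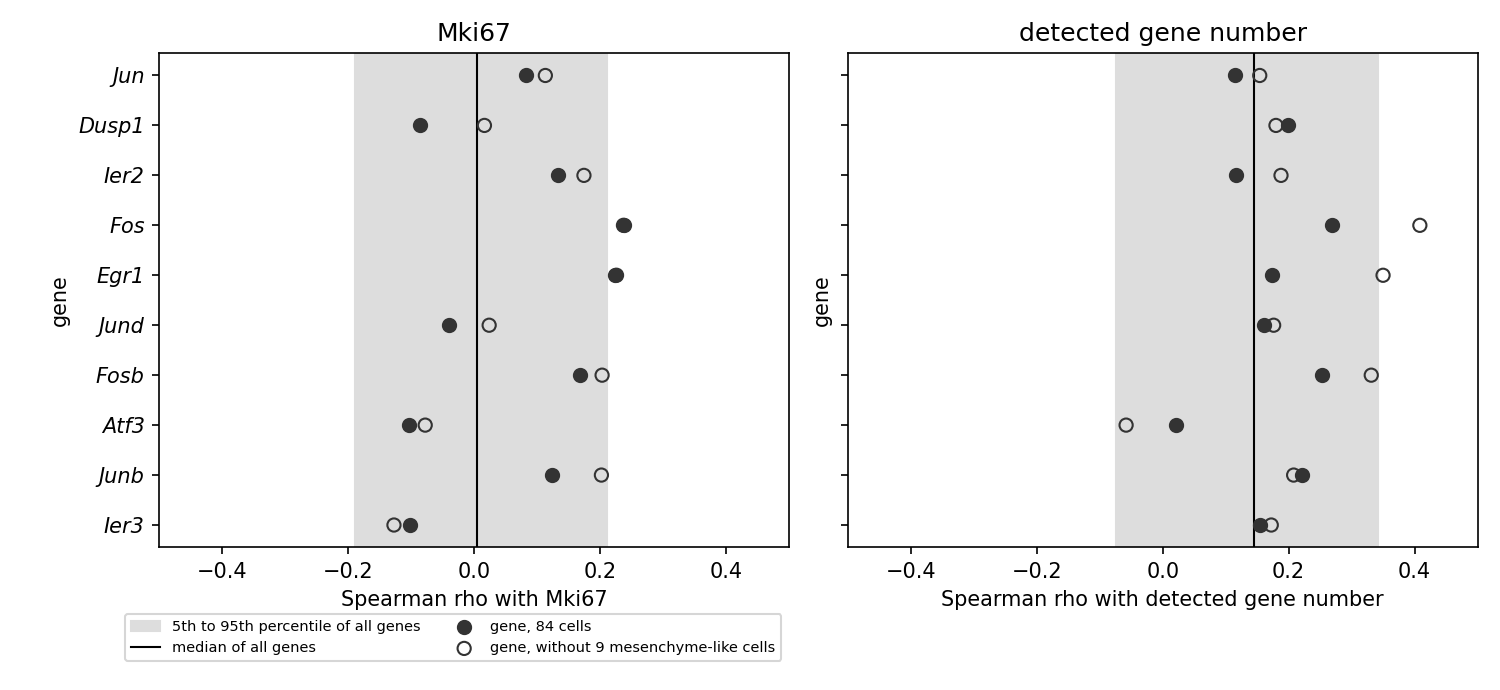
Spearman rho of each gene with Mki67 (left) and with detected gene number (right), over 84 cells (filled) and without the 9 mesenchyme-like cells (open); the grey band is the 5th to 95th percentile, over 84 cells, of all genes detected in 5 or more cells and the line their median. The filled points of Fos and Egr1 lie just above the band for Mki67, and all filled points lie inside it for gene number.

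Clustering without any of the listed genes split off 9 cells from 75. The 9 were called mesenchyme-like because 7 of 11 mesenchyme markers were higher in them by over 1 in mean log2(TPM + 1), and Col1a2 and Prrx1 were among their 10 leading genes. All 12 endothelial markers were lower by over 1, although the 9 cells still had a median of 7 of the 12 at TPM 10, against 11 in the others. The summed TPM of the mesenchyme markers ranged from 171 to 2854 in the 9 cells and from 0.04 to 1612 in the others, so the border was not sharp. The 9 cells came from 5 of the 7 index sets.

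Egr1 and Fos were higher in the mesenchyme-like cells, and Dusp1 and Atf3 were lower. By over 1 in mean log2(TPM + 1), 5.44% of all genes were higher there and 27.6% lower. Egr1 was 0, 0.27, 109, 204, 229, 268, 507, 966 and 1148 TPM in the 9 cells, against a median of 48.8 and a highest value of 822 TPM in the 75 others. Fos was 0, 1.53, 28.2, 82.7, 249, 363, 411, 1045 and 2285 TPM in the 9 cells, against a median of 64.3 and a highest value of 794 TPM in the others. The groups overlapped for both genes, and the cells with the 2 highest values of each were mesenchyme-like. The difference in mean log2(TPM + 1) was 2.19 for Egr1 and 1.78 for Fos.

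Dusp1 was 0 in 3 of the 9 cells and had a median of 2.73 TPM in them, against 62.1 TPM in the others, a difference of −1.74. Atf3 was detected in 1 of the 9 cells, against 30 of the 75 others, a difference of −1.02. The other 6 genes differed by less than 1. With the median of all genes at −0.41, 5.44% of genes were higher and 27.6% lower by over 1, against 2 and 2 of the 10 genes. Among 10 genes, 2 lower is near the share of all genes. Atf3 did not pass 1 with a pseudocount of 10 (−0.37), with median-of-ratios scaling (−0.92) or without index set 2, 3, 5 or 6 (−0.58 to −0.89), and Dusp1 did not with a pseudocount of 10 (−0.95) or without index set 7 (−0.68). The count of genes higher was 1 without index set 5, where Fos differed by 0.95, and 3 without index set 7.

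Mesenchyme markers also tracked part of the group outside the cluster. The mean of the mesenchyme markers had a rho of 0.49 with Egr1, 0.42 with Fosb and 0.32 with Fos over the 84 cells, and 2.91% of all genes reached 0.3. Without the 9 cells these were 0.47, 0.48 and 0.30. Dusp1 had −0.01, Atf3 −0.13 and Junb −0.14. With the mean of the endothelial markers Egr1 and Ier2 had −0.21 each and Atf3 0.22. The 32 cells with 3 or more mesenchyme markers include cells of the cluster, such as cell 54. In these 32 Egr1 had a median of 144 TPM, against 7.21 TPM in the 52 others. The difference in mean log2(TPM + 1) was 2.82. Fos differed by 1.69 and Fosb by 1.26, where 3.83% of all genes were higher by over 1. Dusp1 differed by 0.37 there, the opposite sign to that of the 9 cells. Whether these transcripts belong to the same cell or came with a second cell or free RNA was not tested.

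**Figure D5:**
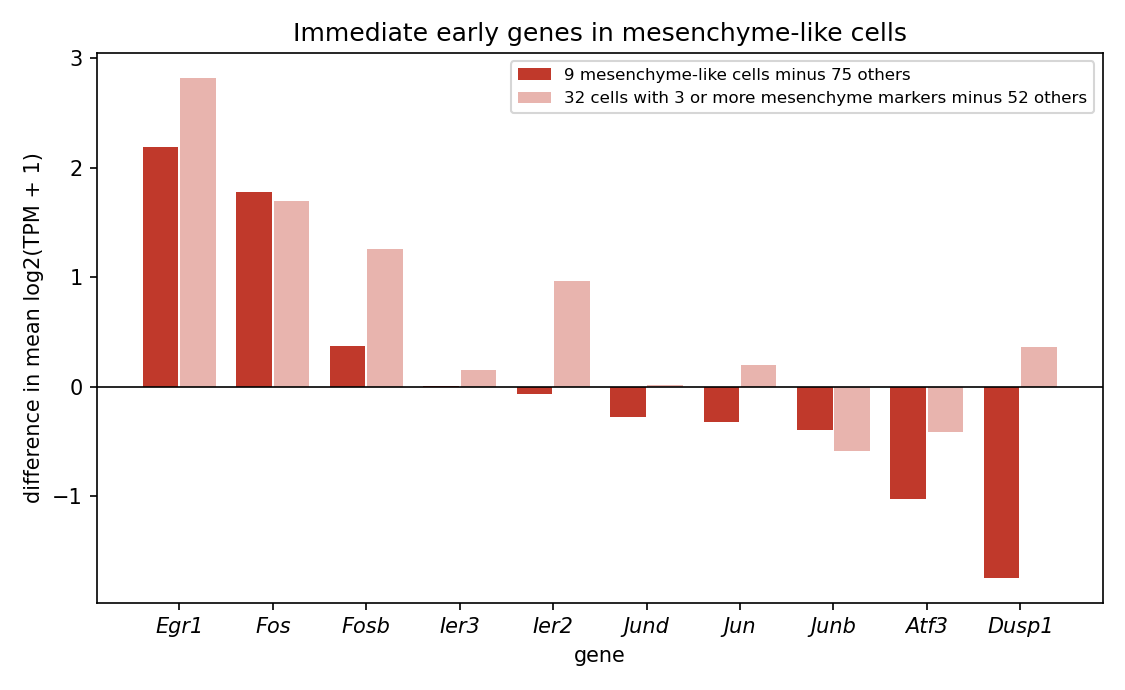
Difference in mean log2(TPM + 1) for each gene: the 9 mesenchyme-like cells minus the 75 others (dark) and the 32 cells with 3 or more mesenchyme markers minus the 52 others (light). There are no error bars because all cells are 1 sample. Egr1 and Fos are positive in both, and Dusp1 is −1.74 in one and 0.37 in the other.

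Other genes of the same response were compared with the mean log2(TPM + 1) over the 10 genes. Of all genes outside the 10, 1.19% had a rho of 0.3 or more with that mean, and the median was 0.05. Among 35 other immediate early genes detected in 5 or more cells, 5 reached 0.3 and the median was 0.15. They included Tnfaip3, an inhibitor of NF-kappa-B signalling, at 0.36, Zfp36, a protein that destabilises mRNAs, at 0.35 and Cyr61, a matrix signalling protein, at 0.34. Tnfaip3 was detected in only 10 cells, Zfp36 in 30 and Cyr61 in 60. Members of that list that were in nearly every cell had lower values: Id3 (84 cells, median 787 TPM) had a rho of 0.15, Btg1 (84 cells, 366 TPM) 0.21, Plk2 (83 cells, 306 TPM) 0.06 and Zfp36l1 (82 cells, 115 TPM) −0.06. Nr4a3 was detected in 0 cells.

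Other AP-1 genes were set beside the same mean. Of 12, 10 were detected in 5 or more cells and 3 in 42 or more, against 12318 and 7031 of all 20308 genes. A rho of 0.3 was reached by 0 of them, against 1.19% of all genes. The median was 0.09, against 0.05 for all genes. Atf2, which needs phosphorylation to be active, was in 78 cells with a median of 38.7 TPM and a rho of 0.08. Maf was in 65 cells, Mafg in 59, Fosl2 in 25 and Batf2 in 0.

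The kinases and factors upstream were broadly present. Of 16 genes of the MAP kinase and serum response pathway 14 were detected in 42 or more cells, against 7031 of all 20308 genes. A rho of 0.3 with that mean was reached by 0 of the 16, against 1.19% of all genes. The median rho was 0.08, against 0.05 for all genes. Elk1, a partner of serum response factor, was in 78 cells with a rho of 0.25. Among 13 feedback inhibitors of the pathway the median rho was 0.04 and 0 reached 0.3. Dusp6, the phosphatase of ERK, had a median of 137 TPM and a rho of 0.08, and Dusp2 was just under 0.3.

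Heat shock genes, which many stresses induce, spanned a wide range of levels. All 14 were detected in 5 or more cells, against 12318 of all 20308 genes. A rho of 0.3 with the mean over the 10 immediate early genes was reached by 0 of the 14, against 1.19% of all genes. The median rho was 0.06, against 0.05 for all genes. Hspa8 had a median of 7016 TPM and a rho of 0.11, Hsp90ab1 3519 TPM and −0.15, and Dnajb1 34.8 TPM and 0.22, while Hspb1 was detected in 10 cells. Among 10 genes of the integrated stress response the median rho was 0.06 and 0 reached 0.3. Its central factor Atf4 was in 81 cells with a rho of 0.22, and Ppp1r15a, a phosphatase subunit that ends the response, was in 62 with a rho of 0.24. Among 16 G2M genes the median rho was 0.16, no lower than the 0.15 of the other immediate early genes. Of these 16, 1, the mitotic kinase Aurka, was over 0.3, at 0.31. Among 14 S phase genes the median rho was 0.09 and 0 reached 0.3.

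The genes outside the 10 that were nearest to each of them were taken among 9674 genes detected in 20 or more cells. For Egr1 they were Zfhx4 (0.50), a homeodomain zinc finger factor, Col1a2 (0.45), a chain of type I collagen, and Clmp (0.43), an adhesion molecule. For Fos they were Col11a1 (0.47), a fibrillar collagen chain, Mrap2 (0.46) and Fzd2 (0.45), a Wnt receptor. Fosb shared Clmp (0.46), Fzd2 (0.45) and Col11a1 (0.43). Zfhx4, Col1a2, Clmp, Col11a1 and Fzd2 were all higher in the mesenchyme-like cells by over 1 in mean log2(TPM + 1), and without those cells their values with Egr1, Fos or Fosb were between 0.38 and 0.54.

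Atf3 was nearest to Ndufv3 (0.44), a subunit of respiratory complex I, and to Gimap6 (0.41), a GTPase of immune and endothelial cells. Ier2 was nearest to Aurka (0.43). Jun was nearest to Rragd (0.43) and had Mdm2 (0.40), the ligase that limits p53, as the third. Dusp1 was nearest to Plxnb1 (0.42), Jund to Camk1 (0.44), Junb to Tpst2 (0.38) and Ier3 to Pgpep1 (0.41). For the mean over the 10 genes the nearest was Pdxk, which activates vitamin B6, at 0.43, followed by Ska2, a kinetochore protein, at 0.42. These are the highest of 9674 values each, with the 10 genes themselves left out, and are given as a description.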

How the data were processed

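RNA of 84 single cells was measured. The deposited table gives TPM per gene and cell, made by the authors; per the submitters' processing notes RSEM 1.2.3, Bowtie 0.12.9, CASAVA 1.8.2 and mm10 were used, in roles not given in the sources used here. Columns summed to between 999998 and 1000002, so depth is unknown, and 0 value columns were left unused. A gene was detected at TPM 1, a marker of another cell type at TPM 10. Cells under 1000 detected genes would have been left out, and 0 were. Spearman rho over cells was computed on TPM, and level differences on log2(TPM + 1), which understates low genes. Ward clustering used 10 principal components of the 1000 most variable genes, with every listed gene left out, and the number of clusters came from the mean silhouette (scikit-learn 1.9.0). No doublet caller was run. No p-value was computed, since the cells are 1 sample. Scripts (Python 3.11.15, scipy 1.17.1) were tested on simulated data.

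The members, the 9 gene lists (147 of 151 genes present) and the 8 marker lists (75 of 76 present) were chosen with earlier results of these data known. Genes were named by a rule: the members and Mki67, the 3 genes nearest to each member and the 10 nearest to their mean, and in each list the genes detected in the most and fewest cells and those with the highest and lowest rho; not all are printed. GC content came from GENCODE transcripts, matched by symbol for 94.9% of genes, and positions and promoters from RefSeq on GRCm38.p6. Alternatives were other detection limits, Pearson correlation, pseudocount 10, median-of-ratios scaling, partial correlation, and leaving out cells or index sets. A few genes that the rule would name are not reported here.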

Additional observations from a re-analysis of the deposited data

How the results depend on the processing

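A value counted as moved beyond 1 SD over the index sets (for a level difference, 1 SD over cells; for a share, the reach of its interval to either side; for a count, 1.5 times). Of 896 alternative values, 91 moved so and 85 had the opposite sign to the value as reported, 54 of them within a single index set. The median number of genes detected per cell was 6, and 7 above TPM 0, 4 at TPM 10, 7 in index set 2, 7.5 in set 3 and 5 in set 6. The median pair rho (0.16) was 0.060 in set 4 and 0.35 in set 7. The median rho with Mki67 (0.10) was 0.34 in set 4 and −0.19 in set 7, and that with gene number (0.17) was 0.39 in set 2, −0.17 in set 5 and 0.45 in set 7. The count of genes higher in mesenchyme-like cells by over 1 (2) was 0 in set 3, 4 in set 5 and 6 in set 6, each from 2 cells of that kind. With each index set left out in turn, detection stayed at 6, the pair median ranged from 0.14 to 0.18, the Mki67 median from 0.04 to 0.16, the gene number median from 0.11 to 0.23, and the mesenchyme-like count from 1 to 3. Of the pairs at 0.3 or more and the differences over 1, the sign was opposite for Jun and Egr1 (−0.035), Fosb and Ier2 (−0.12) and Jun and Ier2 (−0.077) in set 5, for Jun and Jund (−0.19) in set 1, and for Dusp1 in cells with 3 or more mesenchyme markers (0.37, against −1.74 in the cluster); the cause was not tested. The comparison by mesenchyme markers, the pairs with both genes detected and the median pair rho without cell 54 (0.14) were chosen after seeing the data. No paired analysis was possible because all cells form 1 group. An index set has 12 cells, and 1 sample without embryo labels gives no measure of how embryos differ.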
